A study of Mus musculus with 6 samples.

Results

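The 10 genes described here encode enzymes of choline, glycine and methyl group metabolism (Inmt, Gnmt, Bhmt, Bhmt2, Pemt, Mat1a, Chdh, Dmgdh, Sardh and Pipox). They were taken by gene symbol from the count table, which lists 52459 genes, and all 10 were among the 17032 genes with enough counts to be tested. Inmt and Pipox were chosen by their rise in the same comparison that is described below, so their values are given without a test, and the other 8 were added for their place in the same pathway.

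RNA was sequenced from whole livers of 8-month-old male C57BL6J mice of an Alb-Cre/Cas9 F1 cross, 3 that carried sgCtrl as guide RNA (5.1, 7.1 and 7.2) and 3 that carried sgPrdx2, aimed at the peroxiredoxin gene Prdx2 (1.1, 1.3 and 3.2). Cas9 is made in cells in which albumin-driven Cre is active, which in the liver are hepatocytes, and an adeno-associated virus of serotype 8 (AAV8) carried the guide RNA to mice aged 4 to 5 weeks. Mice of both groups received the carcinogen diethylnitrosamine (DEN, 100 mg/kg) 3 weeks after the virus and then, from 1 week later, the choline-deficient high-fat diet CDAHFD for 6 months. There was therefore no group on a choline-sufficient diet and no group without DEN, and hepatocytes that the virus did not reach keep an intact Prdx2 gene.

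Choline that is not used for phosphatidylcholine is oxidised in mitochondria to betaine, starting with choline dehydrogenase (CHDH). Betaine-homocysteine methyltransferase (BHMT) passes a methyl group of betaine to homocysteine, which gives methionine and dimethylglycine, and dimethylglycine dehydrogenase (DMGDH) and sarcosine dehydrogenase (SARDH) then take off the remaining methyl groups until glycine is left. Methionine is activated to S-adenosylmethionine by MAT1A, the methionine adenosyltransferase of the mature liver. In liver, much S-adenosylmethionine is spent by GNMT, which methylates glycine to sarcosine, and by PEMT, which makes phosphatidylcholine from phosphatidylethanolamine and is the route to choline that does not depend on the diet. INMT methylates indoleamines such as tryptamine, and PIPOX is a peroxisomal oxidase of pipecolate and sarcosine.

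Total counts per liver ranged from 37462102 to 56865293, and 3 counts stood for 0.0555 to 0.0921 CPM (counts scaled to a library of fixed size with edgeR's TMM factors), which covers counting error only. Prdx2 itself had 109, 117 and 132 CPM in the sgCtrl livers and 99.0, 112 and 149 CPM in the sgPrdx2 livers, so its RNA level did not separate the groups and does not check the labels. No pair of livers agreed within sampling noise, the closest pair having a chi-square per degree of freedom of 34.8. edgeR called 567 of 17032 genes at an adjusted p under 0.05 (3.33%), of which 305 were higher in sgPrdx2 livers (1.79%).

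Bhmt, Bhmt2 and Dmgdh lie side by side on chromosome 13 (GRCm38), Bhmt at chr13:93616675-93637961 and Bhmt2 at chr13:93655720-93674302 on the minus strand, and Dmgdh at chr13:93674433-93752833 on the plus strand. Bhmt2 and Dmgdh are read away from each other, with 133 bases between their RefSeq starts, and 12.2% of 27025 genes have a start on the opposite strand within 1000 bases. The stretch between these starts is shown because one sequence serves as the upstream region of both genes. It was taken from RefSeq promoter windows of build GRCm38.p6 (chr13:93674303-93674435, plus strand), and the capitals mark a GC box (GGGCGG read on the other strand).
Bhmt2-Dmgdh: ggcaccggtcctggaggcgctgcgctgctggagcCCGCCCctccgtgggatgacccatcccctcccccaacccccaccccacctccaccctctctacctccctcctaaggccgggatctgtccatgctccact

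For Inmt (chr6:55170626-55175043, minus strand) and Pipox (chr11:77880615-77894096, minus strand), bases near the RefSeq start are shown. These are the members that were chosen by their rise. Both RefSeq starts lie inside the gene spans given here, which come from GENCODE. The Inmt stretch ends at the base before the RefSeq start (chr6:55174991-55175090, minus strand), and its capitals mark both copies of the TATA box letters TATAAA. The Pipox stretch spans the start (chr11:77893843-77893972, minus strand), and its capitals mark the letters CAAAGTCCA, the core of an HNF4 element, read on the opposite strand. These letters lie after the RefSeq start.
Inmt: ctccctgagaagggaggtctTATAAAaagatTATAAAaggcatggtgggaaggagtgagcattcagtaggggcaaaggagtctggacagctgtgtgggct
Pipox: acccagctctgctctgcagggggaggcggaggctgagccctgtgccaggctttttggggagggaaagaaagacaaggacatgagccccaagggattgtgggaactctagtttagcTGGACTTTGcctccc

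Promoter windows of 300 bases (250 before and 50 after the start) were found for 9 of the 10 genes, 12 windows in all, and both strands were searched. TATAAA stood in the window of Inmt and of no other member, against 13.6% of 32851 promoter windows, and CAAAGTCCA stood in that of Pipox alone, against 0.475%. GGGCGG stood in windows of Bhmt2, Dmgdh and Chdh (35.7% of all windows), and AGGTCA, a nuclear receptor element, in those of Bhmt, Gnmt and Sardh (16.3%). GTTAAT, part of an HNF1 element, was in none of the 12 (7.1%). The windows of Bhmt2 and Dmgdh, which overlap, held 26 and 25 CG pairs and that of Inmt held 0, with a median of 7 over all windows and quartiles of 3 and 20.

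The first question was whether Chdh, Bhmt, its neighbour Bhmt2, Dmgdh and Sardh differed between sgPrdx2 and sgCtrl livers. Sardh and Bhmt2 rose in sgPrdx2 livers, by 1.18 ± 0.20 and 0.72 ± 0.15 on the log2 scale (SE, edgeR's quasi-likelihood test). Dmgdh had separate groups without passing the threshold. Bhmt, the gene of the enzyme that uses betaine, and Chdh had overlapping groups. The levels of all 10 genes in each liver are shown in the plot of CPM by gene.

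**Figure D1:**
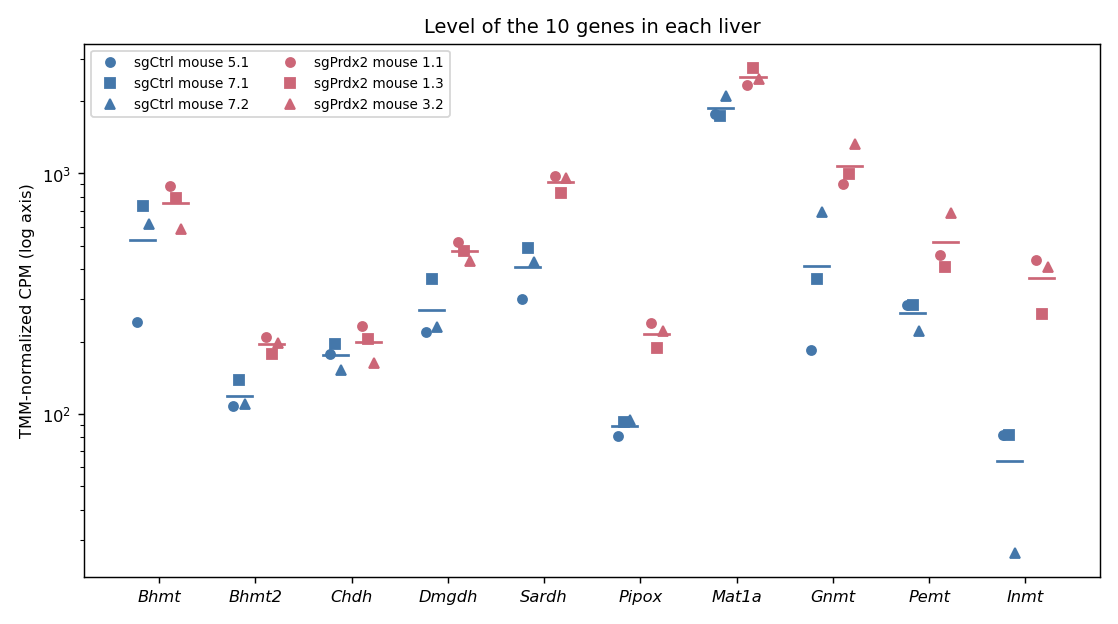
TMM-normalized CPM on a log axis for each of the 10 genes, with 1 point per liver (blue, sgCtrl; red, sgPrdx2; n = 3 each) and a line at each group's mean. The groups stand apart for 8 genes and overlap for Bhmt and Chdh, and sgCtrl liver 5.1 is low for Bhmt and Gnmt. Inmt and Pipox, among the 8, were chosen by their rise, and 34.2% of all tested genes stand apart.

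Sardh (chr2:27188393-27248337, minus strand), which turns sarcosine into glycine, had 301, 490 and 430 CPM in sgCtrl livers 5.1, 7.1 and 7.2 and 978, 827 and 959 CPM in sgPrdx2 livers 1.1, 1.3 and 3.2. The lowest sgPrdx2 liver was thus well above the highest sgCtrl liver, and the means were 407 ± 96.2 and 921 ± 82.1 CPM (SD, n = 3 livers each). The adjusted p over all genes was 0.0394 by edgeR. Leaving out 1 liver moved it to 0.118 (sgCtrl 5.1), 0.143 (sgCtrl 7.2), 0.147 (sgPrdx2 1.1) or 0.0785 (sgPrdx2 1.3), and it stayed under 0.05 without sgCtrl 7.1 (0.0403) or sgPrdx2 3.2 (0.0467). Across all planned settings, edgeR's and DESeq2's adjusted p for Sardh ran from 2.91e-06 to 0.147, with log2 fold changes of 0.81 to 1.33. With scaling to hepatocyte markers, chosen after seeing the data, the log2 value was 0.26 (edgeR adjusted p = 0.205). The median of all genes was -0.96 on that scale.

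Bhmt2, whose product methylates homocysteine from S-methylmethionine, had 108, 138 and 110 CPM in sgCtrl and 209, 178 and 198 CPM in sgPrdx2 livers. The groups did not overlap, and the spread within each was small (119 ± 16.7 and 195 ± 15.6 CPM, SD, n = 3). Its adjusted p by edgeR, 0.0491, was just under the threshold. It was above 0.05 on leaving out any 1 liver, with values of 0.144, 0.0524 and 0.175 without sgCtrl 5.1, 7.1 and 7.2 and of 0.164, 0.0843 and 0.0567 without sgPrdx2 1.1, 1.3 and 3.2. Over the planned settings the log2 fold change of Bhmt2 ran from 0.34 to 0.84 and the adjusted p, by edgeR or DESeq2, from 3.88e-04 to 0.213. With libraries scaled to hepatocyte markers, a choice made after seeing the data, the log2 value was -0.22, beside a median of -0.96 over all genes.

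Dmgdh, which makes sarcosine from dimethylglycine, had 219, 365 and 230 CPM in sgCtrl and 518, 475 and 434 CPM in sgPrdx2 livers. All 3 sgPrdx2 livers lay above the sgCtrl livers, but the log2 difference of 0.81 ± 0.22 (SE) had an edgeR adjusted p of 0.0795. Without sgCtrl 7.1, the sgCtrl liver with the highest level, it was 1.09 with an adjusted p of 0.0389, and over the planned settings the p ran from 0.00534 to 0.254. An antisense transcript, AW495222, overlaps 6.30% of the exon bases of Dmgdh and another, Sardhos, 3.46% of those of Sardh, and whether the counting used strand is not given in the sources used here, so reads of such partners cannot be told apart.

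Bhmt had 241, 735 and 618 CPM in sgCtrl and 887, 794 and 590 CPM in sgPrdx2 livers. The sgCtrl liver 5.1 stood far below the other five, which covered a common range, and the log2 difference was 0.51 ± 0.38 (SE, edgeR adjusted p = 0.430). Without sgCtrl 5.1 it was 0.16. Of the 50-base stretches of the main Bhmt transcript, 59.6% also occur in other annotated genes, mostly Gm5096 and Bhmt-ps1, so the count of Bhmt is uncertain, and an antisense transcript, Gm15622, overlaps 3.25% of its exon bases. The share was 4.99% for Bhmt2, 2.73% for Sardh and 0 for the other members. Gm5096 and Bhmt-ps1 had 21.4 ± 9.99 and 4.47 ± 2.58 CPM in sgCtrl livers (SD, n = 3). Bhmt together with both copies had a log2 ratio of group means of 0.51, as Bhmt had alone. Reads assigned to none of these genes are not in that sum, so it does not settle the count of Bhmt.

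Chdh (chr14:30009023-30040527, plus strand), the entry of choline into this pathway, had 178, 195 and 153 CPM in sgCtrl and 232, 205 and 163 CPM in sgPrdx2 livers. The groups overlapped, and the log2 difference was 0.19 ± 0.17 (SE, edgeR adjusted p = 0.525). It was -0.17 and -0.16 when libraries were scaled to total counts only or to 6 housekeeping genes. With scaling to hepatocyte markers it was -0.74 (edgeR adjusted p = 0.0112). On that scale 76.6% of all tested genes were called and the median of all genes was -0.96, so nothing is read from this call. The calcium channel gene Cacna1d, on the other strand, shares 9.47% of the exon bases of Chdh.

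Within chromosome 13, the 3 neighbours are shown in the map of the cluster. The log2 ratio of Dmgdh to Bhmt2 in each liver does not depend on the scaling of libraries, and it was not a planned ratio. It was 1.02, 1.41 and 1.06 in sgCtrl and 1.31, 1.42 and 1.13 in sgPrdx2 livers. The groups overlapped (difference 0.13, two-sided exact permutation test, p = 0.4). The log2 ratio of Bhmt to Bhmt2 was 1.17, 2.41 and 2.48 in sgCtrl and 2.09, 2.16 and 1.58 in sgPrdx2 livers. Its groups overlapped as well (difference -0.08, exact p = 1), and its direction turned without sgCtrl 7.1 (0.12), sgCtrl 7.2 (0.15) or sgPrdx2 3.2 (0.10), while without sgCtrl 5.1 it was -0.51. With 3 livers against 3, no exact p under 0.1 can be reached. The coding sequences of Bhmt and Bhmt2 were identical at 75.4% of 1088 aligned bases. The tested genes next to the cluster were Jmy and Homer1 beyond Bhmt, with log2 differences of -0.09 ± 0.18 and -0.10 ± 0.23 (SE), and Arsb and Lhfpl2 beyond Dmgdh, with 0.04 ± 0.16 and -0.94 ± 0.12. Of these 4, only Lhfpl2 passed edgeR's test (adjusted p = 0.0313), in the other direction.

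**Figure D2:**
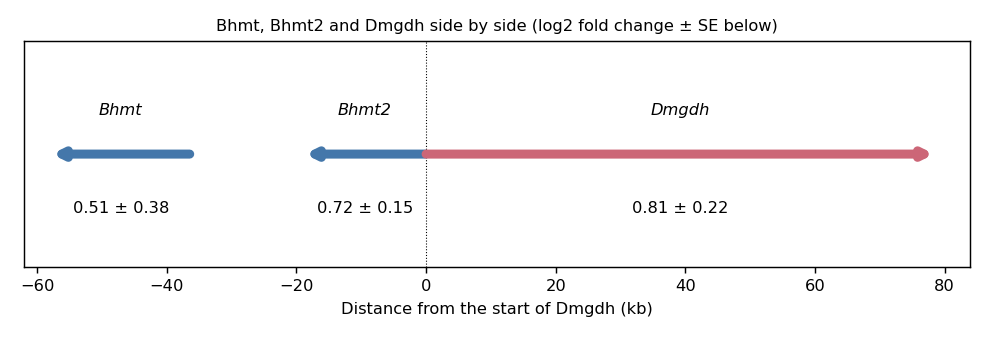
Positions of Bhmt, Bhmt2 and Dmgdh along the chromosome, as distance in kb from the start of Dmgdh, with arrows in the direction of reading (blue, minus strand; red, plus strand) and the log2 fold change of sgPrdx2 against sgCtrl livers ± SE below each gene. Bhmt2 and Dmgdh start next to each other and had values of 0.72 and 0.81. With scaling to hepatocyte markers, chosen after seeing the data, they are -0.22 and -0.10, and the median of all genes is -0.96.

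The next question was whether genes that make and spend S-adenosylmethionine differed. None of Mat1a, Gnmt and Pemt passed edgeR's test. The sgPrdx2 livers were all above the sgCtrl livers for each of them, as for 16.7% of all tested genes. Pemt (chr11:59970614-60046489, minus strand) had 283, 283 and 222 CPM in sgCtrl and 456, 409 and 688 CPM in sgPrdx2 livers. Its groups were separate, at 263 ± 35.1 and 518 ± 149 CPM (SD, n = 3), and sgPrdx2 3.2 was the highest liver. The log2 difference was 0.98 ± 0.22 (SE) and the adjusted p 0.0562, which lies just outside the threshold that Bhmt2 lies just inside. Over the planned settings the p for Pemt ran from 7.64e-04 to 0.187 by edgeR or DESeq2.

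Gnmt (chr17:46725664-46729168, minus strand) had 184, 364 and 695 CPM in sgCtrl and 905, 991 and 1321 CPM in sgPrdx2 livers. It had the widest spread of the 10 genes among sgCtrl livers, with a coefficient of variation of 62.5% against 20.5% in sgPrdx2 livers. The log2 difference was 1.37 ± 0.43 (SE) and the edgeR adjusted p 0.110, and the difference was 1.97 without sgCtrl 7.2, the sgCtrl liver nearest to the sgPrdx2 livers. DESeq2 gave an adjusted p of 0.00672, within a range of 0.00672 to 0.226 over the planned settings.

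Mat1a (chr14:41105035-41124412, plus strand) had 1762, 1728 and 2107 CPM in sgCtrl and 2339, 2739 and 2459 CPM in sgPrdx2 livers. The groups stood apart by a small step, with a log2 difference of 0.43 ± 0.16 (SE, edgeR adjusted p = 0.153) that was 0.06 with libraries scaled to total counts only and -0.51 with scaling to hepatocyte markers (adjusted p = 0.0282, on a scale on which 76.6% of all tested genes were called). Mat2a, the form of the enzyme found outside the mature hepatocyte, had 182 ± 11.1 CPM in sgCtrl and 172 ± 13.5 CPM in sgPrdx2 livers (SD, n = 3), and a log2 difference of -0.08 ± 0.13 (SE, edgeR adjusted p = 0.725). The log2 ratio of Mat1a to Mat2a in a liver was 3.38, 3.18 and 3.50 in sgCtrl and 3.88, 3.99 and 3.73 in sgPrdx2 livers. The groups did not overlap, and the difference was 0.52 (exact permutation test, two-sided, p = 0.1, as low as 3 livers against 3 allow). Leaving out 1 liver gave ratios that differed by 0.43 to 0.59.

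Inmt and Pipox are given as a description, since their rise in these livers was the reason to choose them. Inmt had 82.2, 82.2 and 26.5 CPM in sgCtrl and 438, 260 and 409 CPM in sgPrdx2 livers. The groups were far apart, with sgCtrl 7.2 the lowest liver at 1394 counts and sgPrdx2 1.1 the highest at 19211 counts. The log2 difference was 2.54 ± 0.43 (SE), or 5.80-fold, and between 2.12 and 2.76 over the planned settings. Pipox had 81.1, 92.7 and 94.7 CPM in sgCtrl and 238, 187 and 221 CPM in sgPrdx2 livers. It had the smallest spread of the 10 genes among sgCtrl livers (coefficient of variation 8.18%), and the log2 difference was 1.27 ± 0.15 (SE), or 2.41-fold. The fold changes of all 10 genes are compared in the plot of log2 fold change with standard errors.

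**Figure D3:**
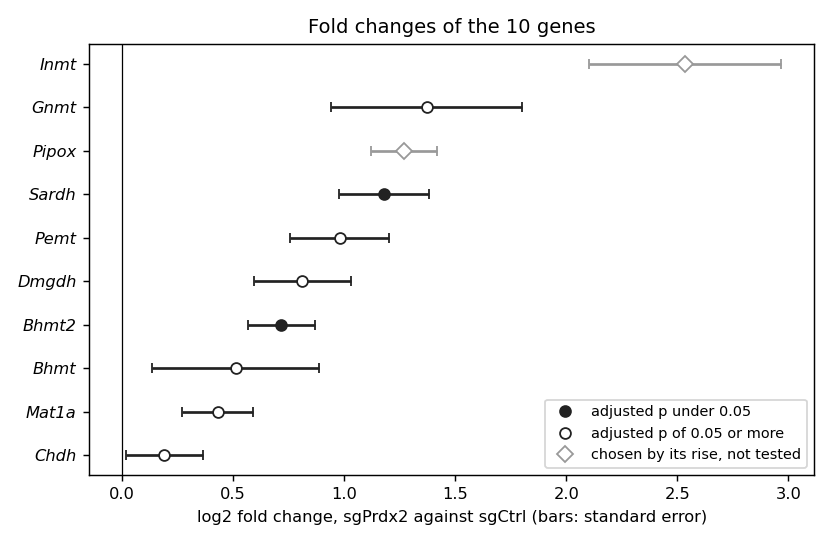
log2 fold change of sgPrdx2 against sgCtrl livers for the 10 genes, with bars of 1 standard error from edgeR (n = 3 livers per group); filled points passed an adjusted p of 0.05, open circles did not, and grey diamonds (Inmt, Pipox) were not tested because they were chosen by their rise. The values run from 0.19 for Chdh, which turns negative with libraries scaled to total counts or to housekeeping genes, to 2.54 for Inmt. With scaling to hepatocyte markers, chosen after seeing the data, Bhmt, Bhmt2, Mat1a, Dmgdh and Chdh are negative, and the median of all genes is -0.96.

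Of the 8 genes that were not chosen by their rise, 2 were called (Sardh and Bhmt2), both higher, beside 3.33% of all tested genes. In 6 of the 8 the groups did not overlap, all 6 with sgPrdx2 livers higher, beside 34.2% of all tested genes without overlap and 16.7% without overlap and higher. The median log2 difference of the 8 was 0.76, beside -0.02 over all tested genes. All 8 were higher under TMM, whereas Chdh turned lower with total counts only (-0.17) or scaling to 6 housekeeping genes (-0.16). These settings moved the median of all genes to -0.39 and -0.38. With scaling to hepatocyte markers, which moved that median to -0.96, 5 of the 8 turned lower. Among the 10 genes, sgCtrl 5.1 was the lowest of the 6 livers for 6 (Gnmt, Bhmt, Bhmt2, Dmgdh, Sardh and Pipox) and sgCtrl 7.2 for 3 (Inmt, Pemt and Chdh), and sgPrdx2 1.1 was the highest for 7. The 8 genes together took 0.383%, 0.482% and 0.513% of all counts in sgCtrl livers and 0.577%, 0.629% and 0.548% in sgPrdx2 livers. These shares did not overlap and differed by 0.126 percentage points (exact permutation test, p = 0.1), or by 0.261 when taken over the TMM effective library size.

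Levels of different genes can be compared only per length, here as CPM per kb of the main coding transcript. The order depends on that choice, because all exons of Bhmt cover 5758 bases against 2490 in its main transcript. For Inmt these lengths are 1600 and 1077 bases, and the count of Bhmt is uncertain, as said above. By this level the order in sgCtrl livers was Mat1a (538 ± 60.5, SD, n = 3), Gnmt (400 ± 250.2), Pemt (273 ± 36.5), Bhmt (213 ± 104), Dmgdh (90.7 ± 27.3), Sardh (90.0 ± 21.3), Inmt (59.1 ± 29.8), Bhmt2 (48.1 ± 6.79), Pipox (44.8 ± 3.67) and Chdh (30.8 ± 3.79). Neighbours from Mat1a to Bhmt, Dmgdh and Sardh, and neighbours from Inmt to Pipox differed by less than the SD of one of the pair, and no step was tested. In sgPrdx2 livers Gnmt came first (1036 ± 212) before Mat1a (725 ± 59.2), and Inmt, at 342 ± 88.6, stood next to Bhmt at 304 ± 61.1. Chdh was last in both groups, with 35.1 ± 6.09 in sgPrdx2 livers.

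Over the 6 livers, the pairs of members most alike in log2 CPM were Bhmt2 and Sardh (Pearson r = 0.975), Sardh and Pipox (0.971), Bhmt2 and Pipox (0.965) and Bhmt2 and Dmgdh (0.962). Of 14113 genes ranked, those most like Inmt were Rbpms2 (r = 0.9996), Hsd17b6 (0.995) and Lims2 (0.995), and those most like Pipox were Hoga1 (0.998), an enzyme of hydroxyproline breakdown, Rdh16f2 (0.997) and Serpinc1 (0.997), which encodes antithrombin. Rbpms2 had a much smaller log2 difference than Inmt (0.62 against 2.54). These correlations describe 6 livers that share the split into groups.

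The last question was how the pathways around these enzymes behaved. Of 101 genes in 9 lists, 97 were tested, and 15 rose and 1 fell in sgPrdx2 livers by edgeR, beside 3.33% of all tested genes called. The median log2 difference of the 97 was 0.47, with 67 higher and 30 lower, and the groups were separate for 55 (34.2% of all tested genes were so), 46 of them with sgPrdx2 livers higher. Those counts are compared by pathway in the plot of genes by list. With scaling to the 6 housekeeping genes 7 were called (5.81% of all tested genes), with DESeq2 40 (12.4%), and with 1 liver left out between 0 and 13; none was called without sgCtrl 5.1, sgCtrl 7.2, sgPrdx2 1.1 or sgPrdx2 1.3, and 10 without sgCtrl 7.1.

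**Figure D4:**
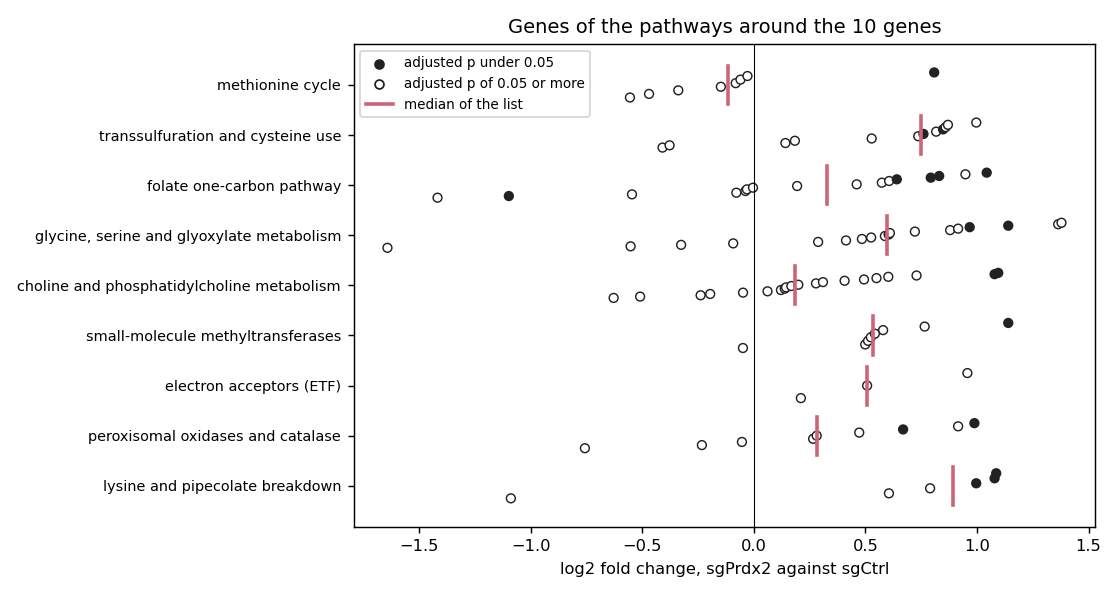
log2 fold change of sgPrdx2 against sgCtrl livers (edgeR, TMM) for each tested gene of 9 lists of pathways around the 10 genes, members left out; filled points passed an adjusted p of 0.05 and red lines mark list medians. The medians run from -0.12 for the methionine cycle to 0.89 for lysine and pipecolate breakdown.

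In the methionine cycle, 1 of 8 genes rose and 7 had values below 0, none of them past the test. Ahcy, which splits S-adenosylhomocysteine, the product that enzymes such as GNMT and PEMT leave behind, was the gene that rose (log2 0.81 ± 0.17, SE, edgeR adjusted p = 0.0496). The edgeR adjusted p of Ahcy was above 0.05 on leaving out any 1 liver (0.0647 to 0.156), and with DESeq2 it was 4.59e-04. In transsulfuration and cysteine use, 2 of 12 rose and none fell. They were Cdo1, which oxidises cysteine (0.85 ± 0.16, adjusted p = 0.0441), and Sqor, which oxidises sulfide (0.76 ± 0.14, adjusted p = 0.0409).

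In the folate pathway, which takes up the carbon units that DMGDH and SARDH release, 4 of 16 genes rose and 1 fell. Among those that rose were Aldh1l1 (log2 1.04 ± 0.20, SE), which oxidises formyl-folate in the cytosol, Shmt2 (0.83 ± 0.17), which interconverts serine and glycine in mitochondria, and Mthfd1 (0.79 ± 0.16), which carries several steps of the cytosolic folate pathway. The edgeR adjusted p of these 3 genes ran from 0.0430 to 0.0466. Mthfd2, a mitochondrial folate enzyme known from dividing cells, fell from 8.34 ± 1.58 to 3.89 ± 0.90 CPM (SD, n = 3; edgeR adjusted p = 0.0471). In glycine, serine and glyoxylate metabolism, 2 of 18 tested genes rose and none fell, Gamt (1.14 ± 0.17, adjusted p = 0.0355), which methylates guanidinoacetate to creatine, and Grhpr (0.97 ± 0.19, adjusted p = 0.0448), which reduces glyoxylate.

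In choline and phosphatidylcholine metabolism, 2 of 20 genes rose and none fell. They were Etnk2, an ethanolamine kinase (log2 1.1 ± 0.15, SE, edgeR adjusted p = 0.0328), and Aldh7a1 (1.08 ± 0.21, adjusted p = 0.0457), an aldehyde dehydrogenase that oxidises betaine aldehyde and also acts in lysine breakdown. The median of this list was 0.18. Of 8 tested small-molecule methyltransferases, 1 rose, Gamt, and Mettl7a1 had 0.58 ± 0.14 (adjusted p = 0.0655). The electron acceptors of DMGDH and SARDH, Etfa, Etfb and Etfdh, had values of 0.51 ± 0.14, 0.96 ± 0.27 and 0.21 ± 0.17, and none passed the test (adjusted p of 0.0790, 0.0872 and 0.478).

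Of 9 tested peroxisomal oxidases and catalase, 2 rose and none fell, Uox, the urate oxidase (log2 0.99 ± 0.16, SE, edgeR adjusted p = 0.0373), and Paox, a polyamine oxidase (0.67 ± 0.14, adjusted p = 0.0480). In lysine and pipecolate breakdown, the pathway in which PIPOX also stands, 3 of 6 genes rose and none fell. They were Aldh7a1, Aadat (1.09 ± 0.21, adjusted p = 0.0448), an aminotransferase of aminoadipate, and Gcdh (0.996 ± 0.17, adjusted p = 0.0383), the glutaryl-CoA dehydrogenase. Crym, which binds thyroid hormone and reduces a ketimine of this pathway, had -1.09 ± 0.33 (adjusted p = 0.101).

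Markers of cell types moved with the groups, and in whole liver fewer cells of a type and less RNA per cell cannot be told apart. Of 10 hepatocyte markers, 6 rose and none fell by edgeR, the summed level was 78002 to 85618 CPM in sgCtrl and 133684 to 181441 CPM in sgPrdx2 livers, and the median log2 difference was 0.96, with values from 0.30 (Hnf4a) to 1.41 (Apoc3). Hnf4a turned lower with total counts only (-0.06) and with the housekeeping genes (-0.05). Periportal hepatocyte markers had sums of 1362 to 2881 against 4361 to 5613 CPM, with all 8 separate between groups and higher in sgPrdx2 livers, none past the test (16.7% of all genes were so placed; Hsd17b13 was at -0.01 with total counts only). The lowest periportal sum was that of sgCtrl 5.1, the liver in which 6 of the 10 genes were lowest. Of 8 pericentral markers 1 rose, Cyp2e1 (0.96 ± 0.18, SE, adjusted p = 0.0409), and the sums were 5205 to 7423 against 11382 to 12637 CPM. Only 3 of these 8 were separate between groups, all 3 higher in sgPrdx2 livers, and Axin2 had a log2 difference of -0.47. The share of all tested genes called by edgeR, to set beside these counts, was 3.33%.

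Markers of other cells had lower sums in sgPrdx2 livers, or overlapping ones. Cholangiocyte markers summed to 1700 to 1930 CPM in sgCtrl and 1264 to 1449 CPM in sgPrdx2 livers, and stellate cell and fibroblast markers to 2017 to 2346 and 1474 to 1502 CPM, with none of the 7 and 8 genes past edgeR's test. Macrophage markers summed to 2609 to 2810 and 1789 to 2619 CPM with none of 7 tested genes called, endothelial markers to 236 to 260 and 164 to 242 CPM with 1 of 7 lower (Pecam1), lymphocyte markers to 86.7 to 103 and 49.0 to 72.0 CPM with 1 of 8 lower (Cd8a), and liver tumor markers to 271 to 370 and 141 to 277 CPM with 2 of 6 lower (Ly6d and Golm1). No marker was at 0 in all livers. Their part in the results on the 10 genes was not tested.

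The values of the 10 genes relative to hepatocyte markers were obtained by scaling each library to the 10 hepatocyte markers, a choice made after seeing the data. On that scale Inmt had a log2 difference of 1.56, Gnmt 0.45, Pipox 0.33, Sardh 0.26 and Pemt 0.00, while Dmgdh had -0.10, Bhmt2 -0.22, Bhmt -0.36, Mat1a -0.51 and Chdh -0.74. Of the 8 genes not chosen by their rise, 3 were thus higher and 5 lower, and those past edgeR's test were Mat1a and Chdh, both lower (adjusted p = 0.0282 and 0.0112). On that scale 76.6% of all tested genes were called, 76.3% as lower, and the median of all genes was -0.96, so nothing about the members is read from these 2 calls. Values under each processing are set side by side in the plot by setting.

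**Figure D5:**
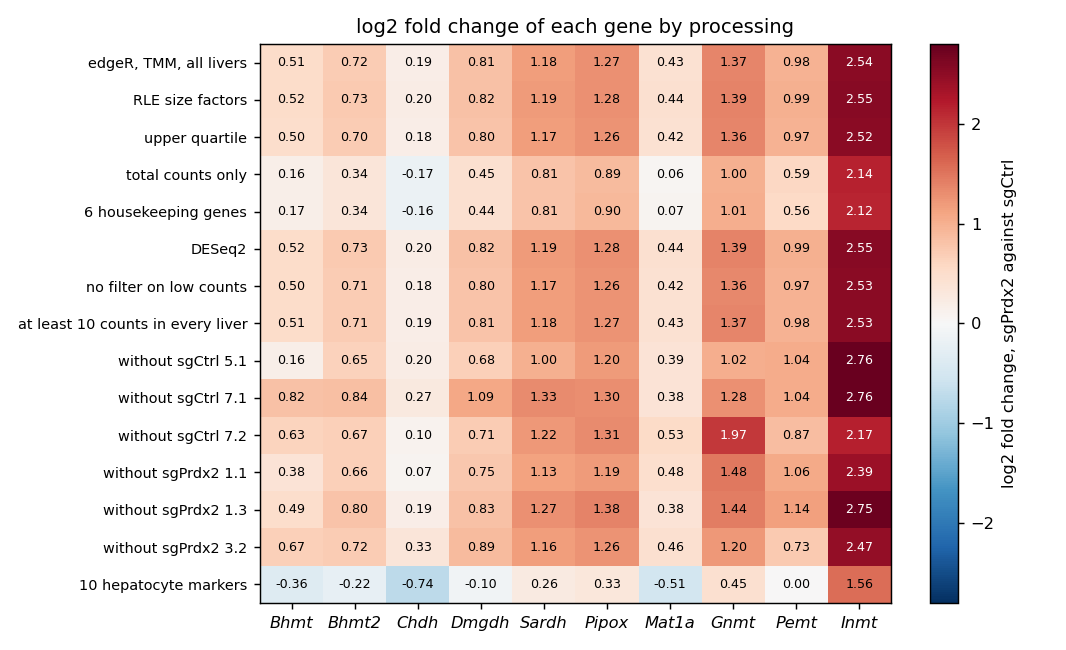
log2 fold change of sgPrdx2 against sgCtrl livers for each of the 10 genes (columns) under each way of processing the counts (rows: normalizations, DESeq2, filters, each liver left out and scaling to markers), with the value in each cell and in color (red, higher in sgPrdx2; blue, lower). Inmt, Gnmt, Pipox, Sardh and Pemt are at or above 0 in each row, and Chdh changes sign with total counts, housekeeping genes and hepatocyte markers.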

How the data were processed

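RNA-Seq counts of 6 mouse livers were analysed, grouped by the guide RNA in the sample labels. The authors deposited whole-number counts of reads per gene without normalization. The submitters' processing notes name HISAT2, HTSeq, DESeq2 and the build GRCm38, and versions, annotation and strand setting are not given in the sources used here. A table of the authors' own DESeq2 comparison (mean counts, fold changes and p-values) was not used.

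Genes were filtered with filterByExpr (minimum count 10), normalized by TMM and tested with the quasi-likelihood test of edgeR 4.0.16 (R 4.3.3) on all 6 livers, with no covariate and Benjamini-Hochberg adjustment over 17032 genes. Genes with an adjusted p under 0.05 were called. Standard errors were computed from the F statistic, as the log2 fold change over its root. Ratios used the counts plus 0.5 and two-sided exact permutation tests. The ratio of Dmgdh to Bhmt2 was not planned, and other unplanned ratios were computed but are not reported here. Likeness was Pearson's r of log2(CPM + 0.5) over genes averaging 1 CPM or more. Total counts were 37462102 to 56865293 per liver, and no pair of livers agreed within sampling noise. Each liver came from a mouse of its own, per the labels.

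The 10 genes and the 9 pathway and 9 marker lists were chosen with earlier results of these data known. The text names the 10 genes, Mat2a, called genes of each pathway list (and the smallest p up to 2 genes), the highest or lowest gene of marker lists and the 3 genes most like Inmt and Pipox. Hoga1, Rbpms2 and the like follow from this rule, whereas the chromosome 13 neighbours, Cyp2e1, Pecam1, Cd8a, Golm1, Crym and the copies of Bhmt were picked with their values in view. Some genes that the rule names entered the counts but are not reported here by name. Alternatives were RLE, upper quartile, total counts, 6 housekeeping genes, DESeq2 1.42.0, other filters, an adjusted p under 0.1 and leaving out each liver. Positions come from GENCODE M21 and promoters from RefSeq (GRCm38.p6).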

Additional observations from a re-analysis of the deposited data

How the results depend on the processing

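With 3 livers per group, a call rested on single livers and on the scaling. Of the 8 genes not chosen by their rise, 2 were called by edgeR, against 1 with total counts only, 0 with the housekeeping genes, 6 with DESeq2, 5 with no filter on low counts, 4 at an adjusted p under 0.1 and 0 to 2 with 1 liver left out. Of the pathway genes, 16 were called, against 7 with the housekeeping genes, 40 with DESeq2, 26 with no filter, 34 at an adjusted p under 0.1 and 0 to 13 with 1 liver left out. Of all genes, 567 were called, against 3247 with total counts only, 989 with the housekeeping genes, 2118 with DESeq2, 1128 with no filter, 1767 at an adjusted p under 0.1 and 0 to 619 with 1 liver left out. The count was 0 by edgeR without sgCtrl 5.1, sgCtrl 7.2, sgPrdx2 1.1 or sgPrdx2 1.3. In these 4 fits, 3114 to 3993 of 17156 to 17429 tested genes had an unadjusted p under 0.05, with 5 or 6 of the 8 genes among them. DESeq2 was not run with livers left out. The share of calls that were higher was 53.8%, against 6.34% with total counts only and 7.08% with the housekeeping genes. RLE, the upper quartile and the stricter filter kept these counts within 1.5 times.

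Log2 differences that turned were Chdh (-0.17), Hnf4a (-0.063), Hsd17b13 (-0.012), Des (-0.37) and Stab2 (-0.088) with total counts only, and Chdh (-0.16), Hnf4a (-0.054), Hsd17b13 (-0.0049), Des (-0.38) and Stab2 (-0.077) with the housekeeping genes. With 1 liver left out, Des ran from -0.24 to 0.33, Timd4 from -0.45 to 0.57 and Sox9 from -0.15 to 0.050. With hepatocyte markers, Bhmt (-0.36), Bhmt2 (-0.22), Mat1a (-0.51), Chdh (-0.74) and Dmgdh (-0.10) turned, by a setting chosen after seeing the data. That setting moved the median of all genes to -0.96. The log2 ratio of Bhmt to Bhmt2 (-0.08) ran from -0.51 to 0.15 with 1 liver left out, and that of Mat1a to Mat2a from 0.43 to 0.59. The share of counts differed by 0.261 percentage points over the TMM effective library size, and by 0.0875 to 0.153 with 1 liver left out. The causes were not tested. No paired analysis was possible because the groups share no replicate numbers.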
